A study of Mus musculus with 2 samples.

Results

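The genes described here encode Toll-like receptors (TLRs) and the proteins that let them sense and signal, measured in vascular cells flow-sorted, after pneumonectomy, from the lungs of old and of young C57BL/6J mice. They were 10 genes, namely the receptor genes Tlr2, Tlr3, Tlr4, Tlr5, Tlr7 and Tlr9, the co-receptor genes Cd14 and Ly96, the adaptor gene Myd88 and the inhibitor gene Irak3, out of 18193 genes with a name on the array. All probe sets annotated to 1 of these symbols alone were taken, which gave 17 probe sets. The old group was 1 array of vascular cells from old mice and the young group 1 array of vascular cells from young mice. In both, the left lobe had been resected and the cells came from the right lobes that were left. How old the mice were, how long after surgery the cells were taken, which markers they were sorted on and how many mice each array stands for is not given in the labels used here. No array of unoperated mice was analysed here.

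TLRs are membrane proteins that recognise conserved microbial molecules and some molecules released by damaged cells. Those at the cell surface bind lipids and proteins, and those in endosomes bind nucleic acids. Most of them signal through the adaptor MyD88 to IRAK kinases, TRAF6 and NF-kappaB, which induces cytokine and chemokine genes, while TLR3 signals through the adaptor TRIF, encoded by Ticam1. Macrophages and other myeloid cells carry most of these receptors, and endothelial cells are known to carry some, TLR4 among them.

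Values are MAS5 signals on a linear scale, scaled so that the median log2 ratio of probe sets well measured on both arrays was 0. Signals under a floor of 73.7 units, the higher of the arrays' medians, were treated as unordered. Where several probe sets measured a gene, the one whose log2 signal averaged highest over the arrays stands for it. Ratios are old over young, and where 1 signal lay under the floor the fold is a lower bound against the floor. With 1 array per group there was no replicate and no statistical test, so differences are described by size, with 2-fold as the rule. The log2 ratio had a standard deviation (SD) of 0.42 among probe sets that measured one gene, taken over 4514 genes. This describes probes and not mice, and the number of arrays limits the precision of every value.

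The sorted cells carried endothelial genes on both arrays, since all 12 general endothelial markers were above the floor on each. Pecam1, an endothelial adhesion gene, had 6049 units on the old array and 6239 units on the young. The VE-cadherin gene Cdh5 had 12534 units on the old array and 9951 units on the young. The arrays differed in which other cells' genes they held. Leukocyte, macrophage, hepatocyte and liver sinusoidal endothelial markers were mostly above the floor on the old array and mostly below it on the young, and most lymphatic endothelial markers were higher on the young. Of 9 lung capillary markers, 5 were above the floor on the old array and 5 on the young. Car4, Fibin and Tbx3 were below it on both arrays. Tmem100 had 3.05 units on the old array and 80.3 units on the young, just above the floor. The lipoprotein anchor gene Gpihbp1 had 32563 units on the old array and 911 units on the young, and the endothelin receptor gene Ednrb had 1280 units on the old array and 11300 units on the young. The hepatocyte gene Alb had 8900 units on the old array and 20.5 units on the young, and Mrc1, a gene of sinusoidal endothelium and macrophages, had 27542 units on the old array and 42.0 units on the young. The old array thus carried liver-type transcripts although it is labelled as lung vascular cells. The young array carried lymphatic endothelial transcripts that were below the floor on the old. Prox1 had 60.6 units on the old array and 6885 units on the young, and Nts had 27.2 units on the old array and 10414 units on the young. No value here checks the labels, and with 1 array per group age, tissue and cell content cannot be told apart in any ratio of old over young. As a check of RNA integrity, the signal at the 3' end over that at the 5' end of Actb was 1.32 on the old array and 1.20 on the young, and for Gapdh it was 0.718 on the old array and 0.806 on the young.

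The old array had the higher signal for most of the TLR sensing genes. Cd14 was 15.0-fold, Tlr2 8.41-fold, Tlr4 5.62-fold, Myd88 2.85-fold and Ly96 2.51-fold higher on the old array. Tlr3 and Irak3 were within 2-fold, and the probe sets that stand for Tlr5, Tlr7 and Tlr9 were below the floor on both arrays. Thus 5 of the 10 genes, or 5 of the 7 measured, were higher on the old array by 2-fold or more and 0 were higher on the young. Of all 12105 measured genes, 16.0% were higher on the old array and 11.3% on the young. The 7 measured genes were each above the floor on both arrays. Their median log2 ratio was 1.51, and that of all measured genes was 0.03.

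**Figure D1:**
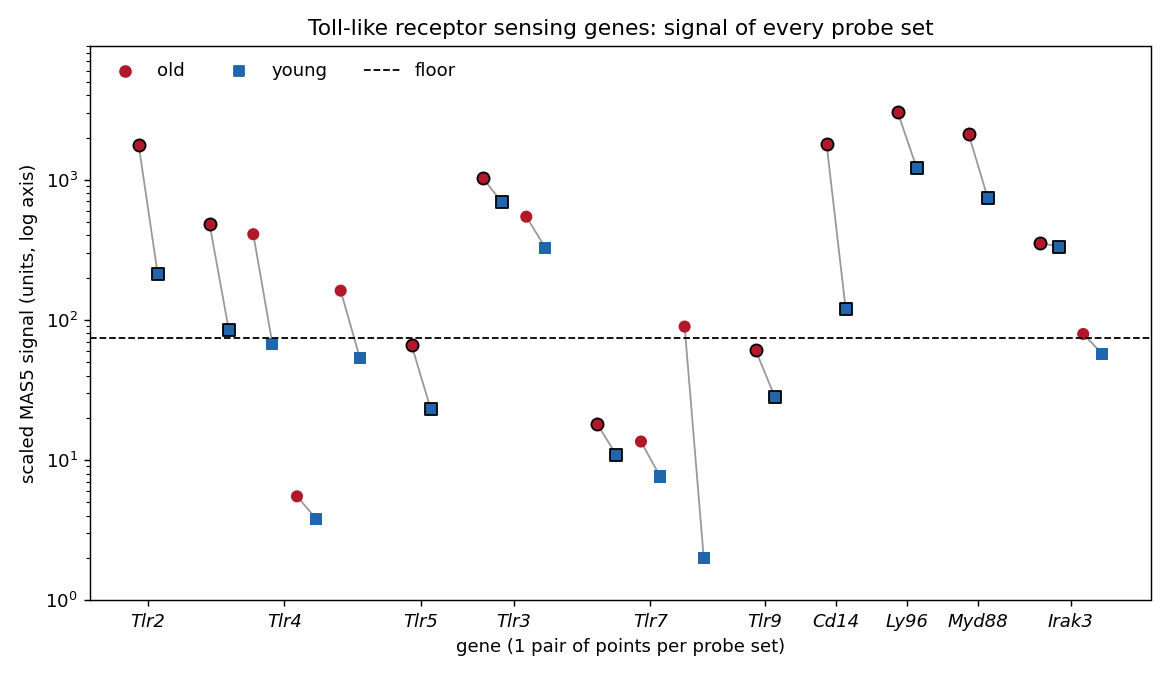
Scaled MAS5 signal (log axis) of each of the 17 probe sets, with the old array as red circles, the young array as blue squares, a line joining the pair and a black outline on the probe set that represents the gene. The dashed line is the floor of 73.7 units; among the outlined pairs, those of Cd14, Tlr2 and Tlr4 slope most from the old point down to the young point, and that of Irak3 is nearly level.

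The promoters of 3 of these genes are shown because Tlr2 and Myd88 were both higher on the old array by 2-fold or more, while Tlr3 was within 2-fold. They are the 250 bases before the annotated start, from RefSeq on build GRCm38.p6, and the promoter table used here was matched for 6 of the 10 genes. Tlr2 lies at chr3:83841609-83841858, Myd88 at chr9:119340019-119340268 and Tlr3 at chr8:45410381-45410630, all on the minus strand, and each is printed 5' to 3' along its gene. The Tlr2 window lies partly, and the Tlr3 window wholly, within the outer bounds that RefSeq gives the gene. Capitals mark matches to the NF-kappaB consensus or to the core of the interferon-stimulated response element (ISRE), both searched on both strands.
Tlr2: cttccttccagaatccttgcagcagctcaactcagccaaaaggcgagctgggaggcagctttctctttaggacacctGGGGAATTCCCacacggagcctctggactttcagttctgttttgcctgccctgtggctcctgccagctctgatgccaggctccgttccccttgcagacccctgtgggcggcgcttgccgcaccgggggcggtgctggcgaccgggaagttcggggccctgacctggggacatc
Myd88: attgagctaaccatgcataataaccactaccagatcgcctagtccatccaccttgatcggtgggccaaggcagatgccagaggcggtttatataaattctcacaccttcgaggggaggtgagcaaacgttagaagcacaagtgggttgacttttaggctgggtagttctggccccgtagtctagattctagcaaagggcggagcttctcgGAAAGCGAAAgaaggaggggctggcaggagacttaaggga
Tlr3: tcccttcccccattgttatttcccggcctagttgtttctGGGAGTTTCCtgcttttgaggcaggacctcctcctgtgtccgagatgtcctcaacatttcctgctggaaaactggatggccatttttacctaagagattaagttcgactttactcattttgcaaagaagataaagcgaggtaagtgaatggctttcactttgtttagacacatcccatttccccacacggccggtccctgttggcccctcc

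The Tlr2 window held 2 overlapping NF-kappaB matches, the first starting 173 bases before the start. The Tlr3 window held 1 such match, starting 211 bases before the start. The Myd88 window held 1 ISRE match, starting 40 bases before the start, and no NF-kappaB match. Of 32851 promoters of the same length, 7.25% held an NF-kappaB match and 2.98% an ISRE match. No match to either was present in the windows of Tlr5, Tlr9 and Irak3, nor an ISRE match in those of Tlr2 and Tlr3. A core of the myeloid factor PU.1 (GAGGAA, in 23.3% of promoters) and an AP-1 match (TGANTCA, in 6.75%) were each found once, in the Tlr9 window, and in none of the other windows. Tlr2 and Myd88 thus had no kind of match in common. These matches describe letters in the window and not binding.

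Among the surface receptors, Tlr2, which pairs with TLR1 or TLR6 to bind bacterial lipopeptides, had 1776 units on the old array and 211 units on the young. Its log2 ratio of 3.07 was higher than that of 96.4% of the measured genes. Both signals were well clear of the floor, so that this fold is not a bound. Tlr2 has a single probe set, so no second measurement of it exists here.

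Tlr4, the receptor for bacterial lipopolysaccharide (LPS), had 480 units on the old array and 85.4 units on the young, a log2 ratio of 2.49. The young signal lay just above the floor. A second probe set had 408 units on the old array and 67.4 units on the young, a bound of at least 5.54-fold. Another had 162 units on the old array and 53.7 units on the young, at least 2.19-fold higher. The 3 probe sets with a signal above the floor thus had the same direction. The remaining probe set had 5.51 units on the old array and 3.82 units on the young and carried no information.

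Tlr5, the receptor for bacterial flagellin, had 65.8 units on the old array and 23.1 units on the young, both below the floor. No fold is given for it. Of the 3 surface receptors, 2 were therefore higher on the old array, and the remaining one was not measurable.

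Both co-receptor genes of LPS sensing were higher on the old array. Cd14, which encodes a membrane protein that hands LPS to the receptor complex and is a standard marker of monocytes, had 1788 units on the old array and 119 units on the young. Its log2 ratio of 3.91 was the highest of the 7 and exceeded 97.9% of the measured genes. Cd14 has a single probe set, as have Ly96 and Myd88, so no second measurement of these genes exists here. Ly96 encodes MD-2, the protein that holds LPS within the TLR4 complex. It had 3045 units on the old array and 1215 units on the young, a log2 ratio of 1.33. The Ly96 ratio was above that of 88.0% of the measured genes. All 3 genes of the LPS receptor complex were therefore higher on the old array, with folds that ranged from 2.51 for Ly96 to 15.0 for Cd14.

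Of the endosomal receptors, only Tlr3 was measured on both arrays. Tlr3, the receptor for double-stranded RNA, had 1032 units on the old array and 691 units on the young with one probe set and 545 units on the old array and 327 units on the young with the other. The log2 ratios were 0.58 and 0.74, which are alike within the probe-set SD and under the 2-fold rule. The first of them, which represents the gene, is of the kind whose probes can match several transcripts. Tlr7, the receptor for single-stranded RNA, was below the floor on both arrays with 2 of its 3 probe sets. The other had 89.6 units on the old array and 2.0 units on the young, a bound of at least 1.22-fold. Tlr9, the receptor for unmethylated CpG DNA, had 60.8 units on the old array and 28.4 units on the young, below the floor on both. Tlr7 and Tlr9 are thus given as not well above background, which does not show that they are absent.

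Myd88, the adaptor shared by all TLRs other than TLR3, had 2122 units on the old array and 744 units on the young. Its log2 ratio was 1.51, above that of 89.6% of the measured genes. Irak3 encodes IRAK-M, a kinase-like protein that restrains signalling from MyD88. It had 354 units on the old array and 333 units on the young, a log2 ratio of 0.09, and its second probe set had 79.3 units on the old array and 57.2 units on the young. Its small ratio had the other sign, -0.04, without rescaling and likewise with equal trimmed means. The adaptor gene was therefore higher on the old array by more than 2-fold, and the inhibitor gene was within 2-fold.

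**Figure D2:**
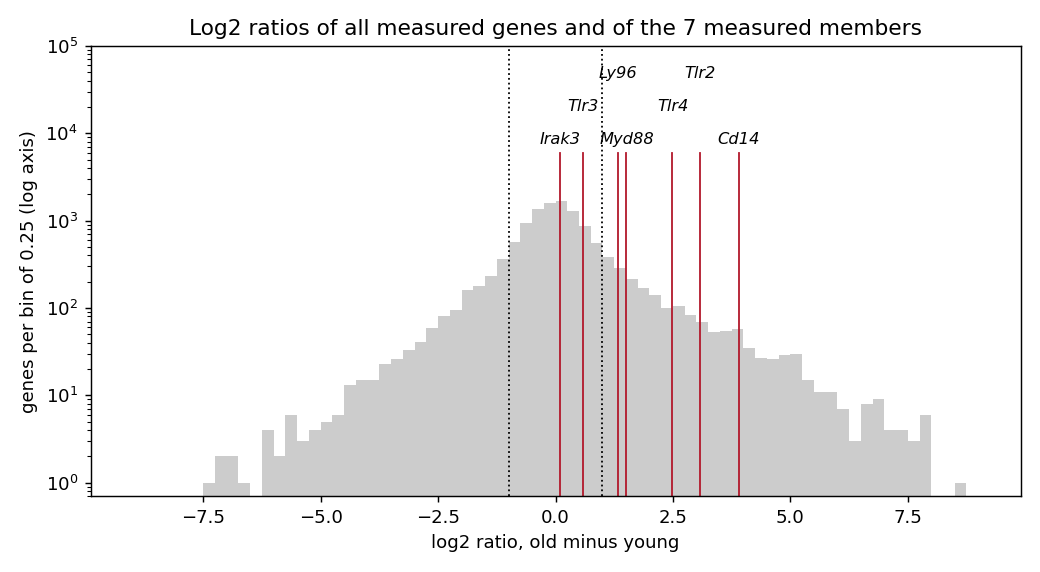
Number of genes (log axis) by log2 ratio, old minus young, for the 12105 measured genes in grey, with red lines at the 7 measured TLR sensing genes and dotted lines at 2-fold. Irak3 stands in the middle of the distribution at 0.09, and Cd14 lies farthest to the right of the 7, at 3.91.

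Other genes of the pathway lay on both sides. Of 60 analysed, 53 were measured, of which 21 were higher on the old array by 2-fold or more, 3 were higher on the young and 29 were within 2-fold (median log2 ratio 0.48), beside 16.0% and 11.3% of all measured genes on the old and young side. All 53 were above the floor on the old array and 38 were on the young. Those above it on the old array only could not fall on the young side. Without the cytokine and chemokine genes, 10 of 41 measured genes were higher on the old array and 3 on the young, with a median of 0.36. Tlr11, Ticam2, Irak4, Traf3, Chuk, Il1rl1 and Nfkb1 were not analysed here.

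Among the other receptors and their partners, 3 of 10 measured genes were higher on the old array and 2 on the young. These counts are too small to set against the 16.0% and 11.3% of all measured genes. All 10 were above the floor on the old array and 6 on the young. Cd36, a scavenger receptor that assists TLR2 and is also known from capillary endothelium, had 10905 units on the old array and 98.9 units on the young, a 110-fold difference, with the young signal near the floor. Ly86, whose product MD-1 partners the LPS-binding homologue CD180, had 1003 units on the old array and 4.30 units on the young, a bound of at least 13.6-fold. Unc93b1, the chaperone that carries the endosomal TLRs to their compartment, had 1611 units on the old array and 335 units on the young, 4.81-fold higher on the old. The chaperone gene of the endosomal receptors thus differed by more than Tlr3 did. Lbp, the LPS-binding protein gene, went the other way, with 4359 units on the old array and 10103 units on the young, 2.32-fold higher on the young. The other gene on the young side was the TLR chaperone homologue gene Cnpy4 (2.12-fold), named after its value was seen. Tlr6, Tlr8 and Tlr12 were below the floor on both arrays. Tlr1, chosen in the same way, was barely above the floor on the old array (80.7 units) and below it on the young (2.35 units).

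The adaptors and kinases downstream were mostly within 2-fold. Tirap, which bridges TLR2 and TLR4 to MyD88, had 588 units on the old array and 241 units on the young, 2.44-fold higher on the old, and a log2 ratio of 0.97 with its other probe set. Ticam1, the adaptor used by TLR3, had 290 units on the old array and 320 units on the young. Pik3ap1, which links TLRs to PI3 kinase, had a bound of at least 1.91-fold toward the old array, and Sarm1 was below the floor on both. By the probe sets that stand for them, Tirap and Myd88 were past 2-fold toward the old array, and Ticam1 was within 2-fold. The other probe set of Tirap fell just under that rule. Of 14 kinase and ubiquitin ligase genes, 12 were within 2-fold, including Ube2n (log2 ratio -0.85, with probe sets from -0.85 to 0.22) and Ikbkb (-0.59, with probe sets from -0.87 to 0.74). Of these 12, Ikbkg (-0.08, with probe sets from -2.15 to -0.07) and Peli1 (0.25, from -1.14 to 0.25) had a probe set past 2-fold toward the young array. Map3k8, the kinase that links TLRs to ERK, had 1974 units on the old array and 65.0 units on the young, a bound of at least 26.8-fold. Ikbke, an IKK-related kinase of the interferon arm, had 79.4 units on the old array and 1041 units on the young, 13.1-fold higher on the young with the old signal near the floor.

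Among the inhibitors, 3 of 9 were higher on the old array and 0 on the young, counts too small to set against 16.0% and 11.3% of all measured genes. Tnfaip3, which encodes the ubiquitin-editing enzyme A20, was 17.4-fold higher, although its probe sets spread from 1.24 to 4.12 in log2 ratio. Dusp1, a MAP kinase phosphatase gene, was 5.33-fold and Tnip1, an A20 partner gene, 2.44-fold higher on the old array. Cyld, a deubiquitinase gene, had a log2 ratio of -0.73. Irak3 was therefore like the 6 inhibitors within 2-fold. Of 5 transcription factor genes, Irf8 (20.4-fold) and Irf7 (9.27-fold) were higher on the old array, and the log2 ratios of Rela (0.64) and Irf3 (0.48) were within 2-fold. The probe sets of Irf3 spread from -1.47 to 0.48 and so had opposite signs. Irf5 had a log2 ratio of 0.01, but 1.38 with its other probe set, past 2-fold. Irf8 is a factor of myeloid and lymphoid cells, and Irf7 drives type I interferon genes.

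The cytokine and chemokine genes that TLR signalling is known to induce stood mainly on the old side. Of 12 measured, 11 were higher on the old array and 0 on the young, with a median log2 ratio of 3.40. All 12 were above the floor on the old array and 3 on the young. The others were measured through the old array alone and could not fall on the young side. Their ratios are bounds against the floor, so the median rests mostly on bounds. Cxcl10, an interferon-induced chemokine gene, had 17896 units on the old array and 64.9 units on the young, a bound of at least 243-fold. The neutrophil chemokine genes Cxcl1 and Cxcl2 were 87.6-fold and at least 29.7-fold higher, and the prostaglandin synthase gene Ptgs2 at least 24.4-fold. The Cxcl1 signal on the young array was 75.7 units, close to the floor, and probe sets spread from 2.64 to 6.45 in log2 ratio for Cxcl1 and from 1.42 to 4.61 for Ptgs2. The exception was Ccl2, a monocyte chemokine gene named after its value was seen, with 1312 units on the old array and 2142 units on the young. Il12b, Ifnb1 and Nos2 were below the floor on both arrays. Many other signals induce these genes, and their ratios do not measure TLR activity.

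**Figure D3:**
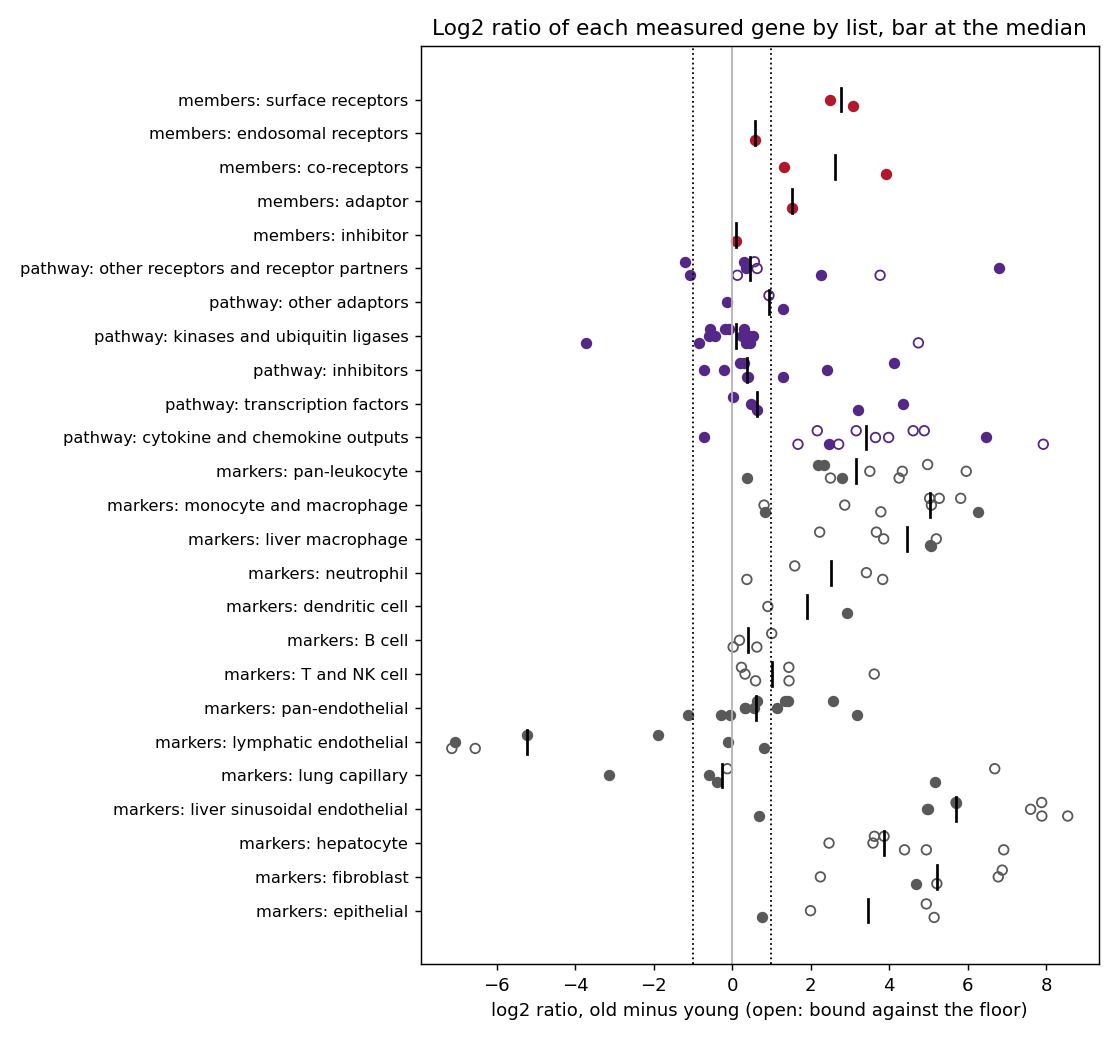
Log2 ratio, old minus young, of every measured gene in each list (rows), with TLR sensing genes in red, other pathway genes in purple and cell type markers in grey, and black bars at the medians. Open points are bounds against the floor and dotted lines mark 2-fold; the kinases centre near 0 (median 0.08), whereas the cytokines (3.40) and the leukocyte and macrophage markers (3.16 and 5.03) lie to the right.

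Markers of other cells stood on the same side as these genes. The marker counts stand beside 16.0% of all measured genes higher on the old array and 11.3% on the young. A marker above the floor on 1 array only could not be higher on the other array. On the old array 9 of 10 pan-leukocyte markers were higher, against 0 on the young, with summed signals of 15138 units on the old array and 1927 units on the young. Ptprc, which encodes CD45, had 1403 units on the old array and 0.840 units on the young. Fcer1g (at least 62.3-fold) and Tyrobp (at least 31.5-fold) were also higher on the old array. Of 10 monocyte and macrophage markers, 7 were higher on the old array, with summed signals of 20132 units on the old array and 594 units on the young. The receptor gene Csf1r had 5835 units on the old array and 75.6 units on the young, and Adgre1, which encodes F4/80, had 537 units on the old array and 32.3 units on the young. Lyz2 (at least 56.5-fold) and C1qa (at least 38.7-fold) followed, and Itgam was below the floor on both. All 6 liver macrophage markers were higher on the old array, led by Vsig4 (at least 36.7-fold), with summed signals of 13367 units on the old array and 274 units on the young. In bulk samples, fewer cells of a type and less RNA per cell cannot be told apart. The part of myeloid cells in the TLR differences was not tested.

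Markers of other leukocytes were higher on the old array in part. The summed signals on the old and young arrays were 2238 and 143 units for neutrophil, 3921 and 599 units for dendritic cell, 482 and 96.2 units for B cell and 1688 and 136 units for T and NK cell markers. On the old array 3 of 8, 1 of 7, 1 of 5 and 3 of 8 of these were higher by 2-fold or more, and 0 were higher on the young in each list. Only 4, 2, 4 and 6 of them were measured, and 16.0% of all measured genes were higher on the old array. The dendritic cell and B cell counts, with 1 gene each, are too small to set against that share. Among the genes higher on the old array, S100a8, a neutrophil gene, was at least 14.3-fold higher, and Gzma, a granzyme gene, at least 12.3-fold. The dendritic cell total was mostly Zbtb46 (3559 units on the old array and 470 units on the young), a gene also known from endothelium. Of the 5 B cell markers, 4 were above the floor on the old array and 0 on the young. Ms4a1, which encodes CD20, had 148 units on the old array and 23.7 units on the young, a bound of at least 2.01-fold.

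Markers of liver and stroma also stood on the old side, and their part in the TLR differences was not tested. Of 9 liver sinusoidal endothelial markers, 8 were higher on the old array, among them Mrc1 (at least 374-fold), Oit3 (at least 237-fold) and Dnase1l3 (at least 236-fold), with summed signals of 195579 units on the old array and 12711 units on the young. All 7 hepatocyte markers were higher on the old array, led by Alb (at least 121-fold), with sums of 15990 units on the old array and 154 units on the young. Fibroblast markers were higher for 5 of 6, with sums of 22511 units on the old array and 251 units on the young, and epithelial markers for 3 of 7, with 5341 units on the old array and 172 units on the young. Col3a1 (at least 118-fold) and Krt18 (at least 35.3-fold) led these lists. Of the epithelial markers, Sftpc, Aqp5 and Scgb1a1 were below the floor on both arrays. On the young array 5 of 7 lymphatic markers were higher, led by Nts (at least 141-fold), with sums of 35086 units on the old array and 64662 units on the young. The old sum was mostly Lyve1 (14902 units on the old array and 16120 units on the young) and Flt4 (18035 and 10262 units), both within 2-fold. Mmrn1, by contrast, had 74.6 units on the old array and 10039 units on the young. General endothelial markers had sums of 149378 units on the old array and 87921 units on the young, with 5 of 12 higher on the old, Robo4 most (9.12-fold), and 1 on the young. Of the 9 lung capillary markers, Kit (at least 103-fold) and Gpihbp1 (35.7-fold) were higher on the old array and Ednrb (8.83-fold) on the young, and the 6 measured had a median log2 ratio of -0.25. Their sums were 49282 units on the old array and 22449 units on the young, of which Gpihbp1 alone gave 32563 units on the old array and 911 units on the young.

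The 7 measured TLR sensing genes were above the floor on the young array too, where leukocyte markers were mixed. There 4 of 10 pan-leukocyte markers were above the floor, namely Lcp1 (1391 units), Cd53 (234 units), Laptm5 (104 units) and Itgb2 (95.6 units), and 2 of 10 monocyte and macrophage markers, Cd68 (377 units) and Csf1r (75.6 units). The Laptm5 probe sets spread from -0.70 to 3.74 in log2 ratio and so had opposite signs. The other markers of both lists were below the floor on that array, from 0.840 units for Ptprc to 57.0 units for Lyz2. Which cells gave the TLR signals of the young array was not tested.

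**Figure D4:**
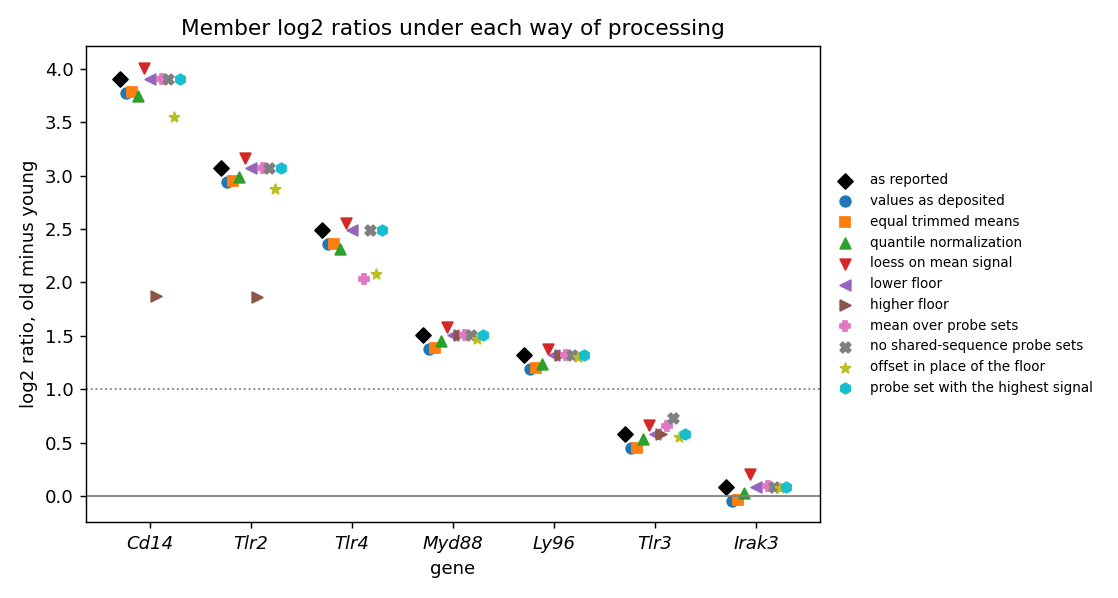
Log2 ratio, old minus young, of each measured TLR sensing gene (columns) as reported (black diamonds) and under 10 other ways of processing (coloured marks), with lines at 0 and at 2-fold. Cd14, Tlr2, Tlr4, Myd88 and Ly96 stay above the 2-fold line wherever they were measured, and Tlr3 and Irak3 stay below it.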

How the data were processed

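RNA of 1 old and 1 young sample was measured on one-colour Affymetrix arrays. The authors deposited 1 linear intensity per probe set, made with MAS5 in GCOS 1.4 as far as the submitters' processing notes name tools. Both columns had a mean of 500.003 once 2% was trimmed from either end. Of 45101 probe sets, 64 controls were left out. Genes came from a platform annotation that gave 34958 probe sets 1 symbol, 932 several and 9211 none, and only single symbols were used. No genome build is named for the arrays.

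The arrays were multiplied by 1.05 (old) and 0.956 (young) to bring the median log2 ratio, -0.13 on the deposited values, to 0. The 2-fold rule, the lists and the alternatives were written down ahead of these calculations, but the members and lists were chosen with earlier results of these data known. Named were all 10 members, up to 4 genes of each pathway list and up to 3 of each marker list with the largest absolute ratios, all pathway genes below the floor, and Ptprc, Csf1r, Adgre1, Pecam1 and Cdh5. Genes named for their level or for standing out were chosen after their values were seen (Tlr1, Cnpy4, Ccl2, Lcp1, Cd53, Laptm5, Itgb2, Cd68, Zbtb46 and Itgam). So were Irf5, Ikbkg, Peli1, Lyve1, Flt4, Car4, Fibin, Tbx3, Tmem100, Sftpc, Aqp5 and Scgb1a1. No genes are named by likeness of pattern, since any genes correlate perfectly over 2 arrays. The scaling and the fold were tested on simulated data, with changes planted only in probe sets well above the floor and balanced between the arrays. Genes near the floor and an unbalanced difference were not covered by that test. Calculations ran in Python 3.11.15 with pandas 2.3.3, numpy 2.4.6, statsmodels 0.14.6 and scipy 1.17.1, and plots in matplotlib 3.10.9.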

Additional observations from a re-analysis of the deposited data

How the results depend on the processing

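The alternatives were quantile normalization, loess (span 0.4), equal trimmed means, no rescaling of the deposited values, a lower floor (percentile 25), a higher floor (percentile 75), the mean of all measured probe sets, leaving out shared-sequence probe sets (the _x_at and _s_at kinds), and adding 0.5 of the floor in place of using it (the offset). Taking the probe set with the highest signal on either array was added after seeing the data. The number of TLR sensing genes higher on the old array by 2-fold or more was 5 under all but the lower floor (7, with Tlr5 at 2.85-fold and Tlr9 at 2.14-fold) and the higher floor (4, with Tlr4 and Irak3 no longer measured), and 0 were higher on the young under each. Their median log2 ratio lay between 1.38 and 1.59, except 1.04 with the offset, which counts all 10 genes. With the higher floor of 489 units, Cd14 had a bound of 1.87 and Tlr2 of 1.86, and Tlr4 had 2.03 as a mean over its probe sets. Over the settings that measured them, Ly96 ranged from 1.19 to 1.38, Myd88 from 1.38 to 1.59 and Tlr3 from 0.45 to 0.74. The count of other pathway genes higher on the old array ranged from 14 with the higher floor to 25 with the lower floor or the offset. The share of all genes higher on the old array against the young was 14.5% against 13.3% on the values as deposited. It was 18.7% against 11.2% with the lower floor and 12.5% against 7.7% with the higher floor. The TLR sensing genes measured were 9 with the lower floor and 5 with the higher floor. No paired analysis was possible because each group has 1 array. Signal over background limits Tlr5, Tlr7 and Tlr9, and the 1 array a group leaves every difference without a replicate check.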
